A study of Mus musculus with 26 samples.

Results

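The DNA replication machinery is described here as 39 genes named by symbol and sorted into 8 groups by role: licensing of origins, the MCM2-7 ring, helicase activation, the sliding clamp and its loader, polymerases and primase, flap and nick processing, nucleotide supply, and G1/S control. They were listed by role and not by a threshold on measured values, though with earlier results of these data known. Each of the 39 was found among the 53465 genes listed for muscle and the 55487 listed for cultured cells. The study asked how muscle regeneration and myoblast differentiation depend on METTL3, the catalytic subunit of the enzyme that writes N6-methyladenosine on RNA. Tibialis anterior muscle came from C57BL/6J mice, named in the methods as male and 6 weeks old, though 5 of the 10 libraries had the RNAs of female muscle (below). It was taken on day 0 (D0) and on days 1, 3, 5 and 10 (D1, D3, D5, D10) after an injection of cardiotoxin (CTX), a venom protein that destroys muscle fibres. Whether the D0 muscle was untouched or had received saline was not settled by the sources used here. The cells were C2C12, an established mouse myoblast line, transduced with lentivirus and selected with puromycin as stable lines. Cas9M3 cells carried dCas9-KRAB, a DNA-binding repressor that does not cut, with guides to the promoter of Mettl3, although the design text of the series speaks of a knockout; Ctrl cells were their controls. Both were sampled in growth medium with 10% fetal bovine serum (GM) and on the third day in differentiation medium with 2% horse serum (DM3). Each of the 9 groups held 2 libraries, and 8 further samples with Mettl3 or GFP overexpression were not analysed here. No source says whether a muscle library was 1 animal or a pool, or whether each cell line was 1 clone or a mixed population.

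Cells copy their DNA once per cycle. In G1 the origin recognition complex, Cdc6 and Cdt1 load the MCM2-7 ring onto origins, which licenses them, and in S phase Cdc45 and the GINS complex turn the ring into a moving helicase behind which primase and the DNA polymerases synthesise both strands. The genes for these proteins are transcribed mainly at the G1/S border under E2F transcription factors. In adult muscle the fibre nuclei have left the cycle for good, whereas satellite cells, their myoblast descendants and invading immune cells divide after injury, and myoblasts that differentiate stop dividing before they fuse.

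The libraries held an estimated 14170000 to 18820000 reads on genes in muscle and 14230000 to 29570000 in cells, and all levels below are FPKM, fragments per kilobase of transcript scaled to the size of the library. Mettl3 stood at 4.68 to 5.65 FPKM in the 4 Ctrl libraries and at 0.0805 to 0.331 FPKM in the 4 Cas9M3 libraries. In muscle, Xist was at 5.77 FPKM or more in both D0 libraries, both D10 libraries and D3 replicate 2, and at most 0.152 FPKM in the other 5 libraries. Xist is a noncoding RNA transcribed from the silenced X of females. The Y-linked gene Eif2s3y was at 0.0119 to 0.108 FPKM in the libraries with Xist and at 9.7 to 11.7 FPKM in the other 5. Ddx3y, Kdm5d and Uty, also Y-linked, divided the libraries in the same way. By these RNAs the libraries with Xist were of female muscle and the other 5 of male muscle, although the methods name male mice. The part of sex in the muscle results was not tested beyond the fit with a term for Xist, whose counts stand beside them. In the cells, ribosomal RNA loci took 0.541 to 0.726% of the estimated reads of each replicate 1 and 8.42 to 29.5% of each replicate 2. Muscle fibre, myoblast and macrophage genes were found in the muscle libraries. Of the macrophage and monocyte genes, Adgre1, C1qa and C1qb were at 0 in all 8 cell libraries. The others on that list were above 0 in all 8: Cd68 at 0.669 to 6.38 FPKM, Lyz2 at 0.472 to 7.03 and Csf1r at 0.0520 to 0.424.

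In injured muscle the replication genes were low on D0, higher from D1 to D5 and back near their first level on D10. Their summed level was 75.2 and 78.7 FPKM on D0, 133 and 97.4 on D1, 140 and 100.1 on D3, 96.7 and 114 on D5, and 73.7 and 82.1 on D10. Every library from D1 to D5 was thus above every library of D0 and D10, and the replicates of D1 and D3 stood well apart. The D0 and D10 libraries expressed Xist, those of D1 and D5 did not, and the D3 replicates differed in it. Day therefore cannot be told apart from Xist status, and so from sex as these RNAs give it, between D0 or D10 and D1 or D5. Of the 39 genes, 10 had their highest mean on D1 (25.6%, against 17.4% of all 16753 genes tested), 14 on D3 (35.9%, against 31.5%), 13 on D5 (33.3%, against 12.5%), 2 on D0 (5.13%, against 26.1%) and 0 on D10 (against 12.5%). The mean was lowest on D0 for 22 of the 39 genes (56.4%), against 27.7% of all genes tested.

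Of the 39 genes, 36 passed the filter of at least 0.5 FPKM in at least 2 libraries and were tested with limma on log2(FPKM + 0.1), with adjusted p-values over all genes tested (called at 0.05). Orc1, Mcm10 and Pola1 were too low. Between D1 and D0, 4 of the 36 were called higher (Cdt1, Gins2, Rrm2 and Ccne1) and none lower, with 3.53% of all genes called higher. Between D3 and D0, 14 rose (Cdc6, Cdt1, Mcm4, Mcm5, Mcm6, Cdc45, Gins2, Rfc2, Prim2, Lig1, Rrm2, Tyms, E2f1 and Ccne1), where 24.5% of all genes did, and 1 (Rfc4) fell, where 24.3% did. That share of rising genes, 14 of 36 (38.9%), stood above the background in this fit but not without D3 replicate 1, where 6 of 36 (16.7%) rose against 16.9% of all genes, and the difference from the background was not tested. The median log2 fold change of the 36 was 0.70, against 0.01 over all genes. With a log2 fold change of at least 2 also asked for, the setting the study used, 6 were called higher, against 9.46% of all genes.

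From D1 to D3, Cdc45 and Rrm2 rose, 2 of 36 against 14.5% of all genes. Neither was called without D1 replicate 2 or D3 replicate 1, and Cdc45 not without D3 replicate 2. From D3 to D5, Cdc45 and Gins2 fell, 2 of 36 against 5.46% of all genes, and neither was called without any one of the D3 and D5 libraries. From D3 to D10, 11 of 36 fell and none rose, against 18.8% of all genes that fell. Between D10 and D0, none of the 36 was called in either direction by limma, against 0.00597% of all genes. At an unadjusted p under 0.05 (limma) were 2 of the 36, and 1697 of all 16753 genes. The median log2 fold change of the 36 was −0.65 from D3 to D10, and −0.35 without D3 replicate 1. Between D10 and D0 it was 0.07 and changed sign with the setting, to −0.05 with quantile normalization, −0.02 without D0 replicate 1 and −0.08 without D10 replicate 2.

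Without any test, both D3 libraries lay above both D0 libraries for 27 of the 39 genes (38.9% of all genes tested), and both D10 libraries lay below both D3 libraries for 26 of the 39 (37.1% of all genes tested). With 2 libraries a group an exact permutation test of a single gene cannot go below p = 0.333, so every call rests on the spread shared over genes and groups. The p-values measure the spread between these libraries, which may be technical. In bulk muscle, fewer cells of a type and less RNA per cell cannot be told apart.

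The calls leaned on single libraries. D3 replicate 1 was higher than replicate 2 for 37 of the 39 genes, with a median log2 difference of −0.63 (replicate 2 minus replicate 1), whereas 51.0% of all genes were higher in replicate 1. Without D3 replicate 1, 6 genes rather than 14 were called higher between D3 and D0 and 3 rather than 11 lower between D10 and D3, and the fit with a term for Xist gave the same counts, which is no separate check, since the term is set by the difference between the D3 libraries. The counts also fell without D0 replicate 1 (D3 against D0) and without D10 replicate 1 (D10 against D3), and no share of all genes is given for these. The median log2 fold change of the 36 between D3 and D0 was 0.79 without D0 replicate 1 and 0.55 without D3 replicate 1. The D1 count of 4 also changed with 1 library left out. With the term for Xist it was 0, where 0 of all genes were called. Between D3 and D0, Rrm2, E2f1, Ccne1 and Cdt1 were called under each of the 22 alternative settings tried, and Cdc45 and Gins2 under 21 of 22, the exception being the fold threshold.

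**Figure D1:**
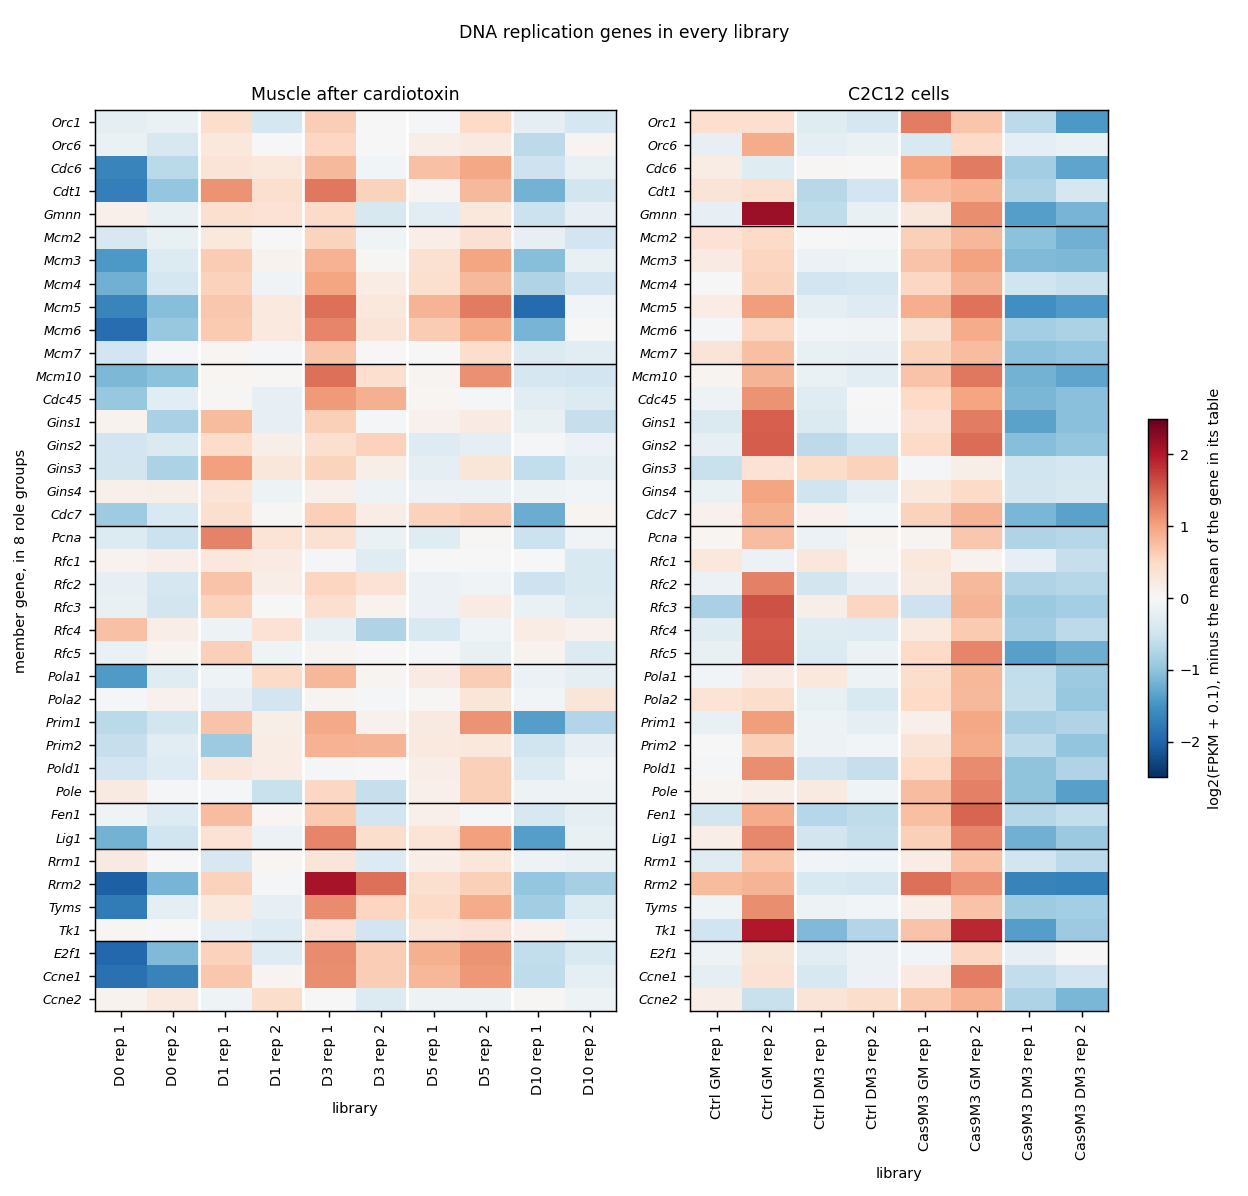
Level of each of the 39 replication genes (rows, in role groups) in each of the 18 libraries (columns, muscle and C2C12 separately), as the log2(FPKM + 0.1) minus that gene's mean over the libraries of the same table (colour scale). In muscle the genes are mostly below their mean on D0 and D10 and above it from D1 to D5, and in the cells the lowest values lie in the Cas9M3 DM3 libraries, where 36 of the 39 genes have their lowest mean.

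The licensing genes were the origin recognition subunits Orc1 and Orc6, the loading factors Cdc6 and Cdt1, and Gmnn, which encodes geminin, the inhibitor of Cdt1. Of the 4 tested between D3 and D0, Cdt1 and Cdc6 rose and Orc6 and Gmnn were not called. Gmnn, the most abundant of the group in muscle (here and below, by the mean over all libraries of the table), was at 3.07 and 2.45 FPKM on D0, 3.72 and 3.64 on D1, 3.94 and 2.09 on D3, 2.30 and 3.39 on D5, and 1.90 and 2.42 on D10. Its D3 libraries lay on either side of its D0 libraries. Cdt1 was at 0.205 and 0.405 FPKM on D0, 2.05 and 1.21 on D1, 2.37 and 1.39 on D3, 0.938 and 1.63 on D5, and 0.338 and 0.624 on D10. Both D1 and both D3 libraries lay well above D0, and the D10 libraries came nearest to D0 again. The log2 fold change of Cdt1 was 2.10 ± 0.45 (SE, n = 2 and 2) between D1 and D0 (limma, adjusted p = 0.043) and 2.29 ± 0.45 between D3 and D0 (limma, adjusted p = 0.00488), and Cdt1 fell from D3 to D10 (log2 fold change −1.77, limma, adjusted p = 0.0188). The D1 call was lost without any one of the D0, D3 and D5 libraries or D1 replicate 1, and the fall to D10 without D3 replicate 1 or D10 replicate 1.

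Cdc6 was at 0.0307 and 0.158 FPKM on D0, 0.620 and 0.293 on D3 and 0.187 and 0.260 on D10. The groups did not overlap, but the level was under 1 FPKM in all 10 libraries and rested on an estimated 13 reads over both D0 libraries and 95 over both D3 libraries, a ratio of 4.72 with an exact 95% interval of 2.63 to 9.19 that covers counting error only. Its log2 fold change between D3 and D0 was 1.54 ± 0.47 (SE, n = 2 and 2; limma, adjusted p = 0.0281), a scale that understates low genes, and it was not called without D0 replicate 1 or D3 replicate 1. Orc1, the untested member of the group, stayed between 0.108 and 0.335 FPKM in all 10 libraries, and part of its exons overlaps Gm12743 on the other strand.

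The MCM2-7 ring is a hexamer of 6 related subunits, each needed for the helicase. Since the promoters of ring genes are textbook targets of E2F, stretches of 180 bases that end 21 bases before the start site were read from the RefSeq promoter windows (mouse build GRCm38.p6). They are shown for a pair of ring genes, for the catalytic subunit of polymerase alpha, and for Rrm2, whose log2 fold change between D3 and D0 was the largest of the tested genes at the pseudocount of 0.1 (though not at 0.01, as given with its values) and which has no match. Capitals mark the letters that match TTTCCCGC, TTTCGCGC, TTTGCCGC or TTTGGCGC on either strand, which are variants of the E2F motif and can overlap each other. The stretches lie at chr8:75109309-75109488 on the plus strand (Mcm5), chr1:128359726-128359905 on the minus strand (Mcm6), chrX:93632176-93632355 on the minus strand (Pola1) and chr12:24708054-24708233 on the plus strand (Rrm2), upstream of the annotated first exon, and each is written 5′ to 3′ on the strand of its gene.
Mcm5: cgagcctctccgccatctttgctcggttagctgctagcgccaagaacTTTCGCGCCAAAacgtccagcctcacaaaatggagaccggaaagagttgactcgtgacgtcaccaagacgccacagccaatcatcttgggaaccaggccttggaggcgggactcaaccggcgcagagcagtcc
Mcm6: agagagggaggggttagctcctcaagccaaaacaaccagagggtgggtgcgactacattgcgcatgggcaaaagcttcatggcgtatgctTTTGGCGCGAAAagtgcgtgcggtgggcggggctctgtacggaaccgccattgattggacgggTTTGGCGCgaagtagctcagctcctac
Pola1: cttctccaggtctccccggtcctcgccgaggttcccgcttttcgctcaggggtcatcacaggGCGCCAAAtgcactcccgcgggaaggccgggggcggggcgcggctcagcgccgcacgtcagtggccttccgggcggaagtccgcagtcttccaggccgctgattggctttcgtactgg
Rrm2: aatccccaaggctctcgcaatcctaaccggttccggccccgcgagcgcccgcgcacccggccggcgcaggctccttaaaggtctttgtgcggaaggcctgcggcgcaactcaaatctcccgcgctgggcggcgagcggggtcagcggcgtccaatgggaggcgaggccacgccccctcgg
Of the 39 genes, 30 had a promoter window (250 bases before to 50 after the start), and 12 of these 30 (40%) held at least 1 such match, against 704 of all 27025 genes with a window (2.61%). The 12 were Mcm3, Mcm5, Mcm6, Mcm7, Orc1, Cdc6, Cdt1, Rfc3, Lig1, Pold1, Gins3 and Pola1. Among ring genes with a window 4 of 5 held a match, among licensing genes 3 of 4, and among nucleotide supply genes 0 of 4. Of the related lists described below, other licensing genes had 4 of 11, other fork genes 5 of 17, and other E2F, RB and S phase kinase genes 5 of 8. Chromatin genes had 2 of 6, other nucleotide supply genes 0 of 5, kinase inhibitors 0 of 3 and mitosis genes 1 of 20. The letters CCAAT on either strand were in 17 of the 30 genes (56.7%), against 41.1% of all genes with a window. A match describes the letters of the window and was not tested as a binding site.

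The summed level of the 6 ring genes was 6.53 and 10.3 FPKM on D0, 19.0 and 14.3 on D1, 26.8 and 14.9 on D3, 18 and 24.1 on D5, and 7.99 and 11.6 on D10. The libraries of D1, D3 and D5 thus lay above those of D0 and D10, with D3 replicate 2 close to D1. Mcm4, Mcm5 and Mcm6 rose between D3 and D0, and Mcm2, Mcm3 and Mcm7 were positive but not called (Mcm3, log2 fold change 1.34, limma, adjusted p = 0.0523).

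Mcm6 was at 0.568 and 1.20 FPKM on D0, 3.83 and 2.87 on D1, 5.73 and 3.03 on D3, 3.81 and 4.68 on D5, and 1.02 and 2.44 on D10. Its log2 fold change between D3 and D0 was 2.20 ± 0.49 (SE, n = 2 and 2; limma, adjusted p = 0.00799), and every D1, D3 and D5 library was above both D0 libraries. Mcm5 was at 0.362 and 0.600 FPKM on D0, 2.24 and 1.62 on D1, 3.67 and 1.66 on D3, 2.54 and 3.48 on D5, and 0.286 and 1.28 on D10. It followed the same course, with D3 replicate 2 near the D1 libraries and D10 replicate 1 below D0, and its log2 fold change between D3 and D0 was 2.18 ± 0.61 (limma, adjusted p = 0.0204). Between D10 and D3 it was called lower (−1.82, limma, adjusted p = 0.0494), a call that held in 4 of the 22 alternatives. Mcm7, the most abundant ring gene in muscle, was at 2.56 and 3.54 FPKM on D0, 3.71 and 3.46 on D1, 5.86 and 3.57 on D3, 3.62 and 4.90 on D5, and 2.82 and 2.98 on D10. Apart from D3 replicate 1 and D5 replicate 2 its libraries lay close together, and its log2 fold change between D3 and D0 was 0.59 ± 0.27 (limma, adjusted p = 0.105). None of Mcm4, Mcm5 and Mcm6 was called between D3 and D0 without D3 replicate 1, without D0 replicate 1 or with the term for Xist.

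**Figure D2:**
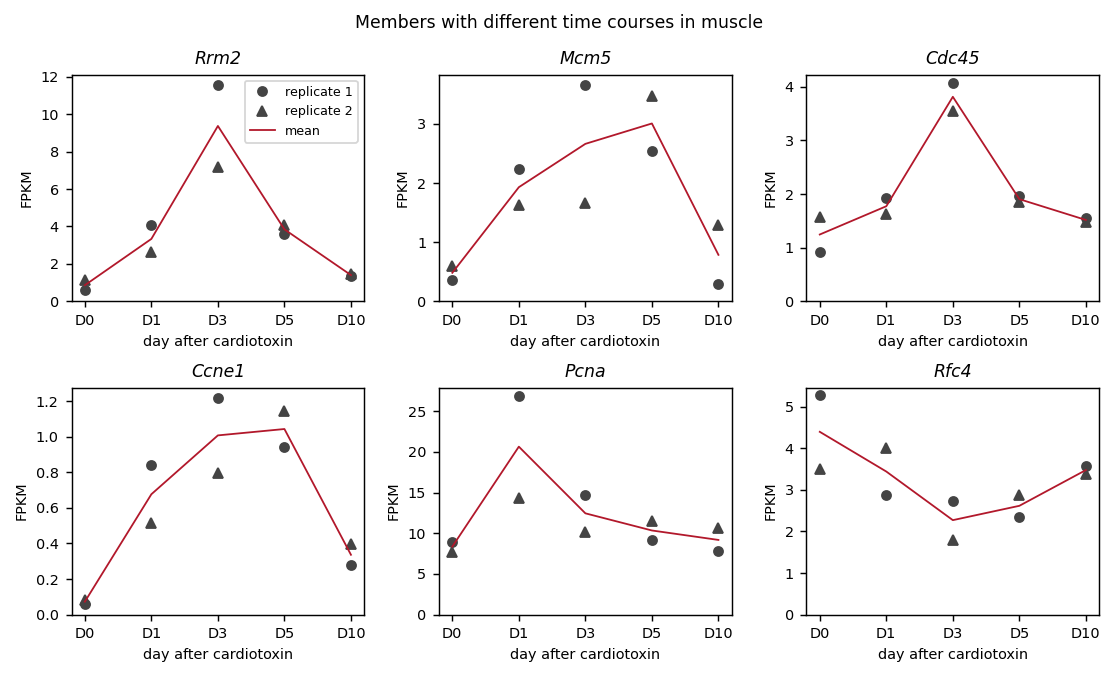
FPKM (vertical axis) in each muscle library on days 0, 1, 3, 5 and 10 (horizontal axis) for Rrm2, Mcm5, Cdc45, Ccne1, Pcna and Rfc4, in a panel each. Points are libraries, 2 a day, and lines join the means. Rrm2 reaches 11.6 and 7.17 FPKM on D3 against 0.579 and 1.14 on D0, whereas Rfc4 is lower on D3 than on D0.

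Helicase activation takes in Cdc45 and the 4 GINS subunits, which join the ring to form the working helicase, Mcm10, which helps to start it, and Cdc7, the kinase that triggers origin firing. Cdc45 and Gins2 rose between D3 and D0, and the other 4 tested genes (Gins1, Gins3, Gins4 and Cdc7) were not called. Cdc45 was at 0.927 and 1.56 FPKM on D0, 1.92 and 1.62 on D1, 4.07 and 3.56 on D3, 1.96 and 1.85 on D5, and 1.56 and 1.47 on D10. Both D3 libraries stood above every other library, and the replicates of D3 were close to each other. The log2 fold changes of Cdc45 were 1.58 ± 0.24 between D3 and D0 (SE, n = 2 and 2; limma, adjusted p = 0.00159), 1.07 ± 0.24 between D3 and D1 (limma, adjusted p = 0.0147) and −0.96 ± 0.24 between D5 and D3 (limma, adjusted p = 0.0393). The first was called with each library left out in turn, the others not, as given above.

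Gins2 was at 4.78 and 5.19 FPKM on D0, 9.15 and 7.39 on D1, 8.83 and 9.92 on D3, 5.29 and 5.69 on D5, and 6.44 and 5.98 on D10. The D1 and D3 libraries lay above all others, with log2 fold changes of 0.71 ± 0.15 on D1 (limma, adjusted p = 0.0398) and 0.90 ± 0.15 on D3 (limma, adjusted p = 0.00228) against D0, of which the D1 call was lost without any one of the D0, D3 and D5 libraries or D1 replicate 1. Its exons overlap those of Gse1 on the other strand over 67.3% of their length, and Gse1 moved in the same way, from 3.54 and 4.03 FPKM on D0 to 5.55 and 6.87 on D3. Whether the counting used strand was not given in the sources used here, so the reads of Gins2 and Gse1 may not be separate. Gins4, the most abundant of the group, was at 8.15 and 8.33 FPKM on D0, 9.58 and 6.88 on D1, 8.15 and 6.82 on D3, 6.78 and 6.73 on D5, and 6.84 and 7.15 on D10. It was the member against the direction of its group on D3, neither of its D3 libraries being above those of D0. Mcm10 was at 0.0209 and 0.0292 FPKM on D0 and 0.580 and 0.251 on D3, too low to be tested, from an estimated 2 and 3 reads on D0 and 88 and 39 on D3.

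The sliding clamp is PCNA, a ring that holds polymerases on DNA, and the loader that opens it is built of Rfc1 to Rfc5. Between D3 and D0, Rfc2 rose, Rfc4 fell, and Pcna, Rfc1, Rfc3 and Rfc5 were not called. Pcna, the replication gene with the highest mean over the muscle libraries though level with Gins4 on D0, was at 8.96 and 7.74 FPKM on D0, 26.9 and 14.4 on D1, 14.7 and 10.2 on D3, 9.15 and 11.5 on D5, and 7.76 and 10.6 on D10. Its highest library was D1 replicate 1, and both D1 libraries lay above D0, but the log2 fold change of 1.23 ± 0.32 on D1 was not called (limma, adjusted p = 0.0649). Rfc2 was at 2.94 and 2.5 FPKM on D0, 5.58 and 3.80 on D1, 4.95 and 4.38 on D3, 3.06 and 3.20 on D5, and 2.33 and 2.57 on D10. It was called higher on D3 (0.76 ± 0.20, limma, adjusted p = 0.0161), though not without D0 replicate 2 or either D3 library, and its exons overlap over 15.1% of their length those of Lat2, an adaptor gene of immune cells, which went from 0.735 and 1.03 FPKM on D0 to 7.15 and 6.51 on D3.

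Rfc4 was the one called gene that went against its group. It was at 5.29 and 3.52 FPKM on D0, 2.87 and 4.02 on D1, 2.74 and 1.80 on D3, 2.36 and 2.88 on D5, and 3.57 and 3.39 on D10. The D0 libraries were both above those of D3, with a log2 fold change of −0.92 ± 0.28 (SE, n = 2 and 2; limma, adjusted p = 0.0273) that was not called without D0 replicate 1 or without D3 replicate 2. Its exons overlap over 12.7% of their length those of Eif4a2, an abundant translation initiation gene, which was at 73.1 and 53.5 FPKM on D0 and 36.7 and 37.8 on D3. The part of Eif4a2 reads in the level of Rfc4 was not tested. Rfc1, the large subunit of the loader, was at 4.12 and 4.35 FPKM on D0, 4.66 and 4.50 on D1, 3.79 and 3.10 on D3, 3.87 and 3.82 on D5, and 3.92 and 2.93 on D10, lower on D3 than on D0 without being called.

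Of the polymerase and primase genes, Prim2 rose between D3 and D0, Pola1 was too low to be tested, and Pola2, Prim1, Pold1 and Pole were not called. Pola2, the regulatory subunit of polymerase alpha and the most abundant of the group in muscle, was at 5.79 and 6.41 FPKM on D0, 5.11 and 4.24 on D1, 6.21 and 5.75 on D3, 6.03 and 7.36 on D5, and 5.66 and 7.35 on D10. Its libraries overlapped between days other than D1. Prim2, the large subunit of primase, was at 0.203 and 0.277 FPKM on D0, 0.141 and 0.410 on D1, 0.717 and 0.716 on D3, 0.434 and 0.444 on D5, and 0.220 and 0.292 on D10. Its D3 libraries were nearly equal and above all others, and its log2 fold change between D3 and D0 was 1.27 ± 0.42 (limma, adjusted p = 0.0365). That call held in 11 of 21 alternatives and was lost without any one of the D0, D3 and D5 libraries. The catalytic subunit Prim1 had a log2 fold change of 1.09 ± 0.46 between D3 and D0 (limma, adjusted p = 0.0826) and fell from D3 to D10 by 1.59 on the log2 scale (limma, adjusted p = 0.0291), though not without D3 replicate 1 or D10 replicate 1. Pole, the catalytic subunit of polymerase epsilon, was at 0.403 and 0.315 FPKM on D0, 0.319 and 0.191 on D1, 0.518 and 0.186 on D3, 0.368 and 0.545 on D5, and 0.293 and 0.291 on D10, with its lowest library on D3 and overlap between most days.

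Fen1, which trims the flaps of lagging-strand fragments, was at 2.29 and 1.95 FPKM on D0, 4.30 and 2.55 on D1, 3.93 and 1.73 on D3, 2.69 and 2.39 on D5, and 1.85 and 2.05 on D10. Its D3 libraries lay on either side of D0, it was called in none of the comparisons, and 78.8% of its exon length is shared with Gm10143 on the other strand. Lig1, the ligase that seals those fragments, was at 0.583 and 1.00 FPKM on D0, 1.90 and 1.30 on D1, 3.53 and 2.00 on D3, 1.87 and 3.08 on D5, and 0.497 and 1.27 on D10. All D1, D3 and D5 libraries lay above D0, the log2 fold change between D3 and D0 was 1.67 ± 0.48 (limma, adjusted p = 0.0234), and Lig1 fell from D3 to D10 (−1.61, limma, adjusted p = 0.0341). The first call was lost without D0 replicate 1 or D3 replicate 1, and the second without either D3 library or D10 replicate 1.

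In nucleotide supply Rrm2 and Tyms rose between D3 and D0 and Rrm1 and Tk1 were not called. Rrm2, the small subunit of ribonucleotide reductase and the one whose amount follows S phase, was at 0.579 and 1.14 FPKM on D0, 4.06 and 2.61 on D1, 11.6 and 7.17 on D3, 3.59 and 4.10 on D5, and 1.33 and 1.47 on D10. Both D3 libraries were above every other library, the D1 and D5 libraries lay between, and those of D10 were just above D0. Rrm2 rose 10.1-fold between D3 and D0 on the log2(FPKM + 0.1) scale (log2 fold change 3.33 ± 0.35, SE, n = 2 and 2; limma, adjusted p = 0.00046), and the value ranged from 2.46 to 3.76 over the alternatives. With a pseudocount of 0.01 it was 3.47, below the 3.61 of Ccne1. It was already higher on D1 than on D0 (1.87 ± 0.35, limma, adjusted p = 0.0319), rose again to D3 (1.46 ± 0.35, limma, adjusted p = 0.0188) and fell 6.16-fold to D10 (−2.62 ± 0.35, limma, adjusted p = 0.00155). The D1 call was lost without any one of the D0, D3 and D5 libraries or D1 replicate 1, and the calls on D3 against D0 and on D10 against D3 held with each library left out in turn.

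Rrm1, the other subunit of the same enzyme, was at 3.38 and 2.86 FPKM on D0, 2.16 and 2.98 on D1, 3.57 and 2.26 on D3, 3.23 and 3.53 on D5, and 2.62 and 2.55 on D10. Its D3 libraries lay on either side of D0. Tk1, the thymidine kinase of the salvage pathway, was at 2.81 and 2.69 FPKM on D0, 2.30 and 2.14 on D1, 3.51 and 1.91 on D3, 3.34 and 3.51 on D5, and 2.92 and 2.42 on D10, and its D3 libraries lay on either side of D0. Tyms, which makes thymidylate, was at 0.0923 and 0.455 FPKM on D0 and 1.36 and 0.836 on D3, and it was called higher (1.84 ± 0.53, limma, adjusted p = 0.0223), though not without D0 replicate 1 or either D3 library.

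The G1/S control genes were the transcription factor E2f1 and the cyclins E1 and E2, which activate Cdk2. E2f1 was at 0.204 and 0.451 FPKM on D0, 1.66 and 0.845 on D1, 2.57 and 1.71 on D3, 2.08 and 2.46 on D5, and 0.673 and 0.813 on D10. Ccne1 was at 0.0603 and 0.0844 FPKM on D0, 0.839 and 0.515 on D1, 1.22 and 0.798 on D3, 0.945 and 1.14 on D5, and 0.276 and 0.397 on D10. For both genes every later library, D10 included, was above both D0 libraries. E2f1 rose 5.37-fold (2.43 ± 0.39, limma, adjusted p = 0.00217) and Ccne1 6.33-fold (2.66 ± 0.35, limma, adjusted p = 0.000908) between D3 and D0. For Ccne1 the estimated reads were 2 and 3 in the D0 libraries and 64 and 43 in those of D3, a ratio of 13.8 with an exact 95% interval of 5.74 to 43.4 that covers counting error only. Between D10 and D0 the log2 fold change of Ccne1 was 1.33 ± 0.35 (limma, adjusted p = 0.386). Ccne2 had the highest mean of the group over the muscle libraries, although E2f1 was above it on D3 and D5. It was at 1.47 and 1.65 FPKM on D0, 1.28 and 1.92 on D1, 1.39 and 1.07 on D3, 1.26 and 1.26 on D5, and 1.40 and 1.25 on D10, with D3 below D0 and not called, and 17.4% of its exon length overlaps Ints8.

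**Figure D3:**
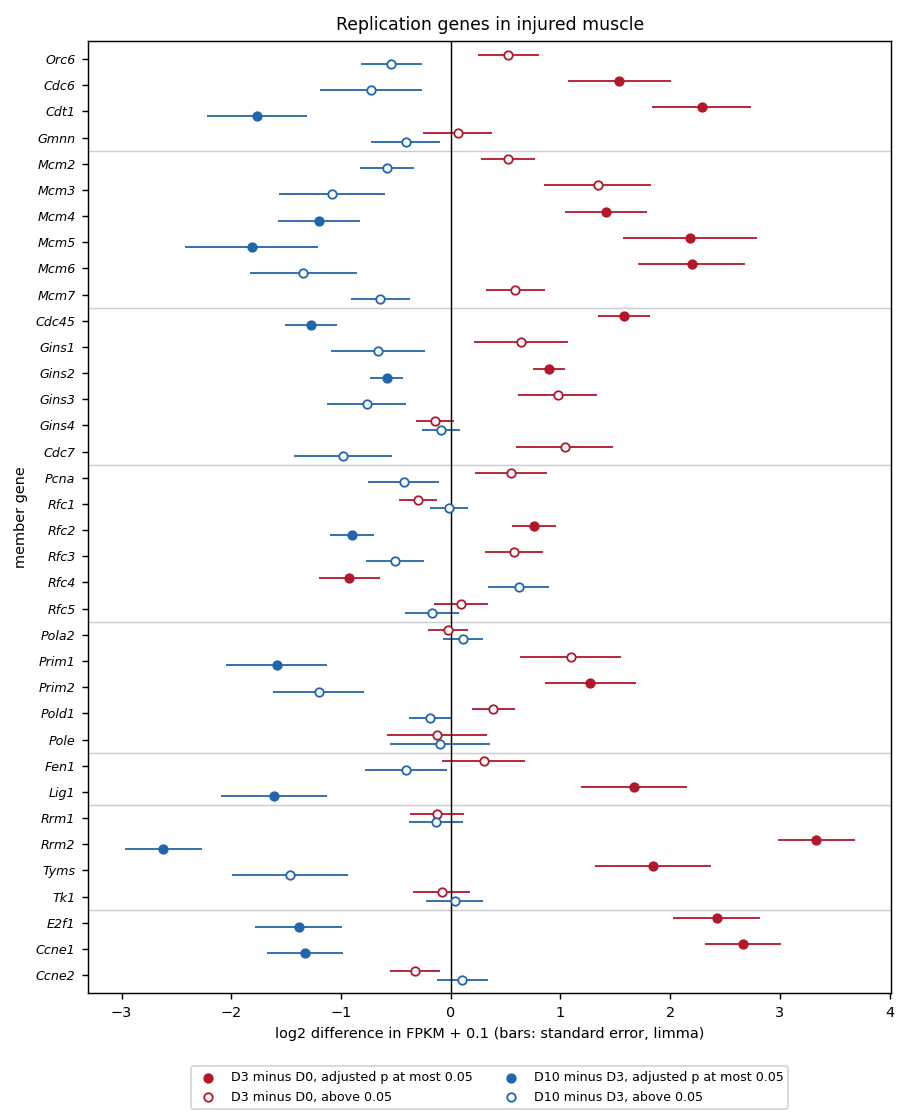
Log2 fold change with its SE (horizontal axis) of each tested replication gene (vertical axis, in role groups) for D3 against D0 (red) and D10 against D3 (blue), with filled points for called genes (adjusted p up to 0.05). For D3 against D0 the values run from −0.92 for Rfc4 to 3.33 for Rrm2, with 28 of 36 above 0, and for D10 against D3 32 of 36 are below 0.

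Other genes of the same pathways were taken as a list of 62 symbols, of which 55 were tested in muscle. Between D3 and D0, 25 of the 55 rose and 6 fell, where 24.5% of all genes rose and 24.3% fell. Between D10 and D3, 5 rose and 20 fell, where 3203 of all 16753 genes rose and 18.8% fell. The difference from the background was not tested. Among those that rose from D0 to D3 were Dbf4, the activator of Cdc7 (log2 fold change 1.5), Clspn, a fork checkpoint protein (1.93), Dna2 (1.76), Ccna2, the S phase cyclin (1.71), E2f2 (1.90) and E2f8 (4.73), and Uhrf1 and Asf1b, which act on chromatin behind the fork (2.60 and 2.41). The single-strand binding subunits Rpa1 and Rpa2 fell (−1.15 and −1.17), as did E2f6 (−2.25) and Rrm2b, the small reductase subunit used outside S phase (−1.30). The kinase inhibitors Cdkn1c, Cdkn1a and Cdkn2c, which hold cells out of the cycle, rose at the same time (3.73, 3.24 and 1.42). Cdkn1a was at 21.6 and 24.7 FPKM on D0 and 181 and 264 on D3.

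Genes of mitosis, 23 fixed symbols used for comparison, were more closely tied to D3. Of the 22 tested, 21 rose between D3 and D0, where 24.5% of all genes did, with a median log2 fold change of 2.70. Of the 23, 20 (87.0%) had their highest mean on D3, against 14 of the 39 replication genes (35.9%) and 31.5% of all genes. None of the 22 was called on D1 by limma. At an unadjusted p under 0.05 (limma) were 7 of the 22, and 4493 of all 16753 genes. Like most replication genes, each of the 23 was higher in D3 replicate 1 than in replicate 2, such as Mki67 at 5.78 and 2.45 FPKM. Each was also lower in D0 replicate 1 than in replicate 2 (Mki67 at 0.0558 and 0.744 FPKM). Fits with a library left out or with the term for Xist are not given for the mitosis genes, and the difference between the lists was not tested.

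Markers of macrophages, myoblasts and fibres changed over the same days. The summed level of 6 macrophage and monocyte genes was 46.5 and 96.0 FPKM on D0, 319 and 387 on D1, 1607 and 1568 on D3, 459 and 524 on D5, and 71.2 and 273 on D10, and 6 of 6 rose between D3 and D0. That of 5 satellite cell and myoblast genes was 37.6 and 32.1 FPKM on D0 and 359 and 344 on D3, with 5 of 5 higher, and that of 5 fibre genes was 45196 and 42820 FPKM on D0 and 12730 and 11086 on D3, with 5 of 5 lower. The D3 replicates were within a few percent of each other in the macrophage and myoblast sums, unlike in the replication genes. Other marker lists went in different directions between D3 and D0. Negative were 4 of 4 endothelial genes, 5 of 5 erythroid genes and the 2 neutrophil genes tested. Positive were 4 of 4 fibroadipogenic genes and the 1 lymphocyte gene tested. The part of all these markers in the replication gene changes was not tested.

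In C2C12 cells the replication genes summed to more FPKM than in muscle, although the tables were scaled separately, and all 39 passed the filter. Their summed level was 422 and 724 FPKM in Ctrl GM, 319 and 333 in Ctrl DM3, 583 and 743 in Cas9M3 GM, and 208 and 213 in Cas9M3 DM3. The DM3 libraries lay below the GM libraries in both lines, and the lowest values were those of Cas9M3 in DM3. Of the 39 genes, 29 had their highest mean in Cas9M3 GM, 9 in Ctrl GM, 1 in Ctrl DM3 and 0 in Cas9M3 DM3, and 36 (92.3%) had their lowest mean in Cas9M3 DM3, against 26.9% of all genes tested.

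From GM to DM3, 1 of the 39 genes, Rrm2, fell in Ctrl cells, against 0.376% of all genes, and the same gene was the one called lower in Cas9M3 cells, against 0.0145% of all genes. With the replicate number as a block, 2 were called lower in each line. The direction was one-sided: 34 of 39 genes were negative in Ctrl (median log2 fold change −0.65) and 39 of 39 in Cas9M3 (median −1.67), with medians within 0.05 of 0 over all genes, and 10 and 33 of them were at an unadjusted p under 0.05. The Ctrl median was −0.12 without Ctrl GM replicate 2 and −1.03 without Ctrl GM replicate 1, whereas that of Cas9M3 stayed between −1.78 and −1.38 with any library left out. Both DM3 libraries lay below both GM libraries for 21 of 39 genes in Ctrl (22.4% of all genes) and for 37 of 39 in Cas9M3 (24.1% of all genes), Orc6 and E2f1 being the others. How many genes were called rested on single libraries. The count in Ctrl was higher without Ctrl GM replicate 1, and that in Cas9M3 was higher with either Ctrl GM library left out. The call of Rrm2 in Cas9M3 was lost without any one of the Cas9M3 or Ctrl DM3 libraries. No share of all genes is given here for fits with a library left out, for the block or for the unadjusted counts.

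Against Ctrl in DM3, Cas9M3 cells had 2 of 39 genes lower, Mcm2 and Rrm2, where 0.687% of all genes were called lower, and 3 with the replicate number as a block. When the DM3 groups alone were fitted, 19 of 39 were called lower, against 8.90% of all genes. The median log2 fold change was −0.72, 36 of 39 values were negative, and 13 genes were at an unadjusted p under 0.05. Both Cas9M3 libraries lay below both Ctrl libraries for 33 of 39 genes (34.2% of all genes), the others being Orc6, Cdt1, Gins4, Fen1, Tk1 and E2f1. More genes were called lower with either Ctrl GM library left out, and the calls of Mcm2 and Rrm2 were lost without any one of the DM3 libraries. No share of all genes is given here for those fits, for the block or for the unadjusted counts. In GM limma called none of the 39 genes between Cas9M3 and Ctrl and 0% of all genes, with 5 members at an unadjusted p under 0.05 and a median log2 fold change of 0.26. That median was −0.08 without Ctrl GM replicate 1, 0.69 without Ctrl GM replicate 2, 0.52 without Cas9M3 GM replicate 1 and 0.03 without Cas9M3 GM replicate 2, so its sign rested on single libraries. Limma called none for the difference of the Cas9M3 effect between DM3 and GM either, and 0% of all genes, with 13 members at an unadjusted p under 0.05 and a median of −0.94, which was −0.41 without Ctrl GM replicate 1, −0.60 without Cas9M3 GM replicate 2 and −1.42 without Ctrl GM replicate 2.

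**Figure D4:**
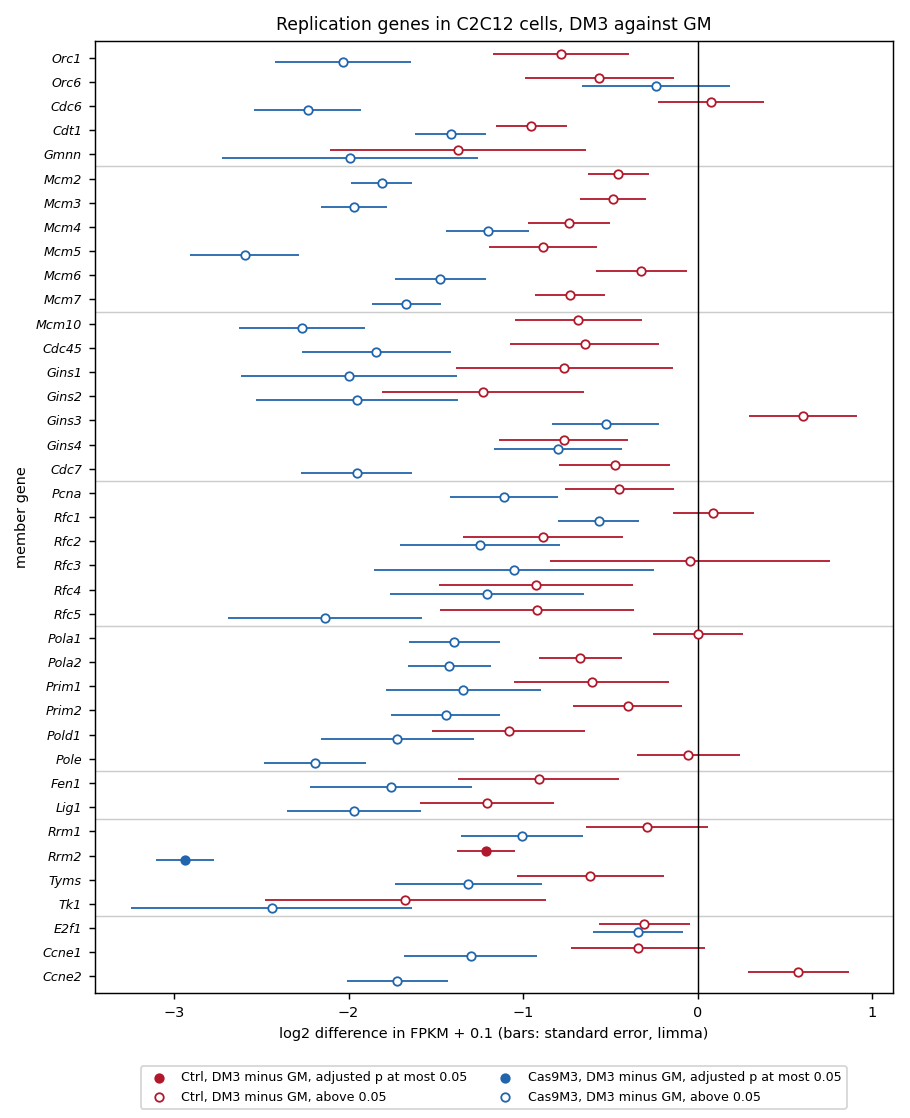
Log2 fold change with its SE (horizontal axis) of each of the 39 replication genes (vertical axis, in role groups) for DM3 against GM in Ctrl (red) and in Cas9M3 (blue) C2C12 cells, with filled points for called genes (adjusted p up to 0.05). All 39 values are below 0 in Cas9M3 and 34 in Ctrl, and Rrm2 is the gene called in each line.

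Rrm2 had the highest mean of the replication genes in the cells, though Pcna was as high in Cas9M3 DM3, and it was at 121 and 127 FPKM in Ctrl GM, 53.9 and 52.7 in Ctrl DM3, 182 and 156 in Cas9M3 GM, and 22 and 21.7 in Cas9M3 DM3. The 4 groups did not overlap, the replicates of each were close, and Cas9M3 was above Ctrl in GM and below it in DM3. Rrm2 fell 2.32-fold from GM to DM3 in Ctrl (log2 fold change −1.21 ± 0.17, SE, n = 2 and 2; limma, adjusted p = 0.0394) and 7.67-fold in Cas9M3 (−2.94 ± 0.17, limma, adjusted p = 0.00895). In DM3 it was lower in Cas9M3 than in Ctrl (−1.28 ± 0.17, limma, adjusted p = 0.0269), in GM the difference was 0.44 ± 0.17 (limma, adjusted p = 0.526), and the difference of the 2 effects was −1.73 ± 0.24 (limma, adjusted p = 0.266). These calls held in 8, 12 and 13 of 19 alternatives for Ctrl, Cas9M3 and DM3, and most of the losses came with a library left out. Rrm1 was at 10.8 and 21.5 FPKM in Ctrl GM, 12.6 and 12.4 in Ctrl DM3, 15.1 and 22 in Cas9M3 GM, and 9.61 and 8.46 in Cas9M3 DM3, so that its media overlapped in Ctrl and not in Cas9M3.

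For all 6 ring genes both DM3 libraries lay below both GM libraries in each line. Mcm2 was at 9.11 and 9.90 FPKM in Ctrl GM, 7.02 and 6.79 in Ctrl DM3, 10.6 and 12.5 in Cas9M3 GM, and 3.42 and 3.01 in Cas9M3 DM3. Its groups did not overlap, and between the lines in DM3 it was called lower in Cas9M3 (log2 fold change −1.08 ± 0.18, limma, adjusted p = 0.0421), a call that held in 11 of 19 alternatives. Mcm6, the most abundant ring gene in the cells, was at 18.1 and 26.9 FPKM in Ctrl GM, 17.8 and 17.4 in Ctrl DM3, 24.4 and 35.2 in Cas9M3 GM, and 10.3 and 10.7 in Cas9M3 DM3. Ctrl GM replicate 1 lay almost at the Ctrl DM3 level, whereas the Cas9M3 DM3 libraries were clear of all others. Mcm3 was at 13.2 and 16.6 FPKM in Ctrl GM, 10.4 and 10.7 in Ctrl DM3, 18.9 and 23.1 in Cas9M3 GM, and 5.32 and 5.21 in Cas9M3 DM3, again without overlap. Of the uncalled ring genes, Mcm5 had the largest log2 fold change from GM to DM3 in Cas9M3, −2.60 ± 0.31 (limma, adjusted p = 0.0666).

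Among licensing genes, Orc6 was the most abundant, at 21 and 46.1 FPKM in Ctrl GM, 20.5 and 21.6 in Ctrl DM3, 18.5 and 33.6 in Cas9M3 GM, and 20.5 and 21.7 in Cas9M3 DM3. It did not separate the media or the lines, since replicate 1 of each GM group lay at the DM3 level. Cdc6 was at 1.59 and 1.11 FPKM in Ctrl GM, 1.42 and 1.39 in Ctrl DM3, 2.85 and 3.56 in Cas9M3 GM, and 0.720 and 0.495 in Cas9M3 DM3. In Ctrl cells its media overlapped, and the Cas9M3 libraries lay above Ctrl in GM and below Ctrl in DM3, with a difference of the 2 effects of −2.31 ± 0.43 on the log2 scale (limma, adjusted p = 0.266). Cdt1 was at 6.56 and 7.02 FPKM in Ctrl GM and 3.19 and 3.75 in Ctrl DM3, and at 8.97 and 9.68 FPKM in Cas9M3 GM and 3.02 and 3.90 in Cas9M3 DM3. It was lower in DM3 in each line, not called, and in DM3 the lines overlapped.

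In helicase activation, Gins4 was at 17.7 and 39.6 FPKM in Ctrl GM, 14.1 and 17.1 in Ctrl DM3, 24.1 and 28.0 in Cas9M3 GM, and 14.6 and 15.2 in Cas9M3 DM3. The lines overlapped in both media. Gins3 went against its group in Ctrl cells, at 3.68 and 7.03 FPKM in GM and 7.48 and 8.12 in DM3, with a log2 fold change of 0.60 ± 0.31 (limma, adjusted p = 0.34), and in Cas9M3 it was at 5.26 and 6.07 in GM and 3.81 and 3.97 in DM3. Mcm10, too low in muscle, was at 1.40 and 2.48 FPKM in Ctrl GM, 1.18 and 1.08 in Ctrl DM3, 2.25 and 3.49 in Cas9M3 GM, and 0.532 and 0.478 in Cas9M3 DM3.

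Pcna was at 39.7 and 66.4 FPKM in Ctrl GM, 34.9 and 40.6 in Ctrl DM3, 40.5 and 61.7 in Cas9M3 GM, and 22.8 and 23.5 in Cas9M3 DM3. Its level in the cells is uncertain, because the near-identical copy Pcna-ps2 was listed at 38.1 and 104 FPKM in Ctrl GM, 34.8 and 44.3 in Ctrl DM3, 39.4 and 60.0 in Cas9M3 GM, and 24.3 and 25.0 in Cas9M3 DM3, as much as Pcna itself. In muscle the copy was at 0 to 2.30 FPKM. The loader subunits Rfc2, Rfc3, Rfc4 and Rfc5 had 2 very unequal GM replicates, such as 2.54 and 13.9 FPKM for Rfc3 in Ctrl GM, whereas Rfc1 was at 11.1 and 8.31 FPKM in Ctrl GM, 11.2 and 9.38 in Ctrl DM3, 11.1 and 9.84 in Cas9M3 GM, and 8.01 and 6.14 in Cas9M3 DM3. Rfc1 was alone in its group in having replicate 1 the higher in every group.

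Of the polymerase group, Prim1 was at 4.19 and 9.85 FPKM in Ctrl GM, 4.33 and 4.05 in Ctrl DM3, 5.21 and 9.36 in Cas9M3 GM, and 2.62 and 2.78 in Cas9M3 DM3. The Cas9M3 DM3 libraries were the lowest, and the media overlapped in Ctrl. Pole was at 1.57 and 1.69 FPKM in Ctrl GM, 1.77 and 1.38 in Ctrl DM3, 2.61 and 3.72 in Cas9M3 GM, and 0.694 and 0.525 in Cas9M3 DM3. Its Ctrl libraries overlapped between media while the Cas9M3 libraries lay on either side of them, with a log2 fold change from GM to DM3 in Cas9M3 of −2.19 ± 0.29 (limma, adjusted p = 0.0689). Pola1 was at 2.88 and 3.54 FPKM in Ctrl GM, 3.66 and 2.79 in Ctrl DM3, 4.14 and 5.44 in Cas9M3 GM, and 1.94 and 1.57 in Cas9M3 DM3, the same order. Among the genes of lagging-strand processing, Fen1 was at 9.48 and 25.0 FPKM in Ctrl GM, 7.90 and 8.38 in Ctrl DM3, 21.9 and 35.8 in Cas9M3 GM, and 7.90 and 8.54 in Cas9M3 DM3, so that the lines overlapped in DM3 and not across the media in Cas9M3.

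E2f1, the most abundant G1/S gene in the cells, was at 9.68 and 13.1 FPKM in Ctrl GM, 8.74 and 9.51 in Ctrl DM3, 10.1 and 15.3 in Cas9M3 GM, and 9.21 and 10.4 in Cas9M3 DM3. The 4 groups lay close together and the lines overlapped in both media, unlike its course in muscle. Ccne2 went against its group in Ctrl cells, at 4.40 and 2.64 FPKM in GM and 4.94 and 5.35 in DM3 (log2 fold change 0.58 ± 0.29, limma, adjusted p = 0.335), while in Cas9M3 it was at 6.27 and 7.29 in GM and 2.27 and 1.73 in DM3. Its log2 fold change in Cas9M3 was −1.72 ± 0.29 (limma, adjusted p = 0.0908), and the difference of the 2 effects was −2.30 ± 0.41 (limma, adjusted p = 0.266).

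In 9 of the 39 genes both Cas9M3 libraries lay above both Ctrl libraries in GM and below both in DM3, an order seen in 3.41% of all genes tested. They were Orc1, Cdc6, Mcm2, Mcm3, Pola1, Pola2, Pole, Rrm2 and Ccne2. None was called for the difference of the effects.

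The GM replicates of both lines differed in nearly all replication genes. Replicate 2 was the higher for 35 of 39 genes in Ctrl GM (median log2 difference 0.78) and for 36 of 39 in Cas9M3 GM (0.53), against a median of 0.06 in each DM3 group. In Ctrl GM the difference followed gene length over all genes, from a median of 0.93 for genes under 1 kb to −0.46 for genes over 6 kb, and it was 1.15 for the 10 replication genes under 3 kb and 0.60 for the other 29. Muscle fibre genes moved in the opposite direction in the same libraries: their summed level was 117 and 12.4 FPKM in Ctrl GM and 75.8 and 4.19 in Cas9M3 GM. Replicate 1 of each GM group thus held more of the fibre genes and less of the replication genes than replicate 2, along with the smaller share of ribosomal RNA. The part of these in the replication gene values was not tested.

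**Figure D5:**
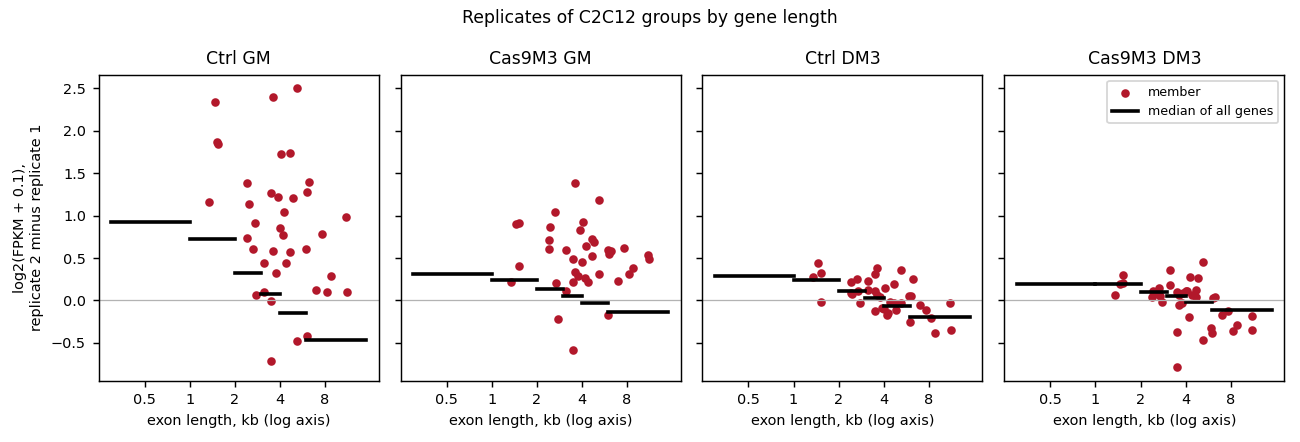
Difference between the 2 replicates of each C2C12 group (vertical axis, log2 FPKM + 0.1, replicate 2 minus replicate 1) against exon length in the reference annotation (horizontal axis), with a panel for each group, the 39 replication genes as points and the median of all genes tested in each length class as a bar; the length axis is logarithmic. In Ctrl GM and Cas9M3 GM 35 and 36 of the 39 points lie above 0, and in the DM3 groups they lie around 0.

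In DM3 the 5 fibre genes summed to 456 and 409 FPKM in Ctrl and 12.1 and 9.41 in Cas9M3, and Myog, the regulator of myoblast differentiation, was at 89.1 and 83.3 FPKM in Ctrl and 3.50 and 2.28 in Cas9M3. The lower replication genes in Cas9M3 DM3 thus stood beside lower differentiation genes. For its Mettl3 knockdown cells the study reported the other direction, by other measures. It found more of the muscle protein MyHC by immunoblot, and on the third day more fusion by staining. By RT-qPCR it found higher levels of fusion-related genes on that day. The cause of this difference was not tested. Of the 62 other pathway genes, 1 was called higher and 2 lower in Cas9M3 against Ctrl in DM3, where 0.687% of all genes were called lower. Cdkn1c was higher (2.79, limma, adjusted p = 0.0335), and E2f2 (−3.39, limma, adjusted p = 0.0187) and E2f8 (−2.5, limma, adjusted p = 0.0296) were lower. Cdkn1c was at 1.09 and 1.34 FPKM in Cas9M3 DM3 against 0.125 and 0.0589 in Ctrl DM3, which is near the floor. In GM it already stood apart, uncalled, at 1.20 and 1.07 FPKM in Cas9M3 against 0.139 and 0.102 in Ctrl. E2f2 was at 4.72 and 3.90 FPKM in Ctrl DM3 and at 0.316 and 0.321 in Cas9M3 DM3, against 0.850 and 0.594 in Ctrl GM. From GM to DM3 in Ctrl, E2f2 rose (2.44, limma, adjusted p = 0.0367) and Rnaseh2a fell (−1.48, limma, adjusted p = 0.0463). The 23 mitosis genes were all negative in Cas9M3 from GM to DM3 (median log2 fold change −2.41), with none called by limma. All 23 were at an unadjusted p under 0.05 (limma), for which no share of all genes is given.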

How the data were processed

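RNA sequencing was analysed in 10 muscle and 8 C2C12 libraries. The values are FPKM deposited by the authors, who aligned reads with HISAT2 to Ensembl GRCm38, counted them per gene with featureCounts and scaled them with the fpkm function of DESeq2. The strand setting and the tool versions were not given in the sources used here. The muscle and cell tables were scaled separately, so tests stayed within a table.

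Each table was fitted once with limma 3.58.1 (R 4.3.3) on log2(FPKM + 0.1), over all its groups, with a mean-variance trend, for genes of at least 0.5 FPKM in at least 2 libraries. Benjamini-Hochberg adjustment ran over all genes tested. The standard error is the moderated one. The fit code was run on simulated data with independent normal noise and planted changes. That run cannot check the p-values where libraries share deviations, as the cell libraries do. Reads were estimated from the steps in low FPKM values, of which 97.2 to 99.0% were whole multiples of 1 read within 0.05 reads. Summaries used Python 3.11.15 with pandas 2.3.3 and numpy 2.4.6.

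Levels in every library are given for the most abundant gene of each role group and for genes that went against their group between D3 and D0 or between DM3 and GM. Further genes were singled out after their values were seen, and the genes and lists were chosen with earlier results of these data known. Replicate numbers were tested for pairing through the correlation of same-numbered deviations: every pair of cell groups reached 0.278 to 0.68, so the numbers pair the libraries there, whereas muscle reached −0.0187 to 0.211. The values given come from fits without a block, and the blocked counts stand beside them where they differ. In the cells the standard errors and p-values given for single genes therefore leave this pairing out. Alternatives were other pseudocounts, filters, scalings and samples, a block, a fold threshold and each library left out, plus, chosen after seeing the data, a length correction. Promoters came from RefSeq windows, and exon overlaps and lengths from the gene annotation.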

Additional observations from a re-analysis of the deposited data

How the results depend on the processing

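None of the single genes called changed sign under an alternative, but medians near 0 did, as given with them, and the medians of the tested genes from D1 to D3 (0.14) and from D3 to D5 (−0.02) became −0.19 and 0.28 without D3 replicate 1. Of the alternatives to counts above 0, 87 moved the count by over 1.5 times and 102 did not. The 4 genes higher on D1 than D0 became 2 with a pseudocount of 1, 1 with no filter, 0 when only those groups were fitted, 2 with the fold threshold, 0 with a term for Xist-expressing libraries and 2 with the length correction and replicate block. Between D3 and D0, the 14 higher became 6 with the fold threshold and 6 with the Xist term, and the 1 lower became 2 with quantile normalization and 0 with no filter, with only those groups, with the fold threshold and with the length correction and block. The 2 higher on D3 than D1 became 1 with only those groups, 0 with the fold threshold and 1 with the Xist term. The 2 lower on D5 than D3 became 1 with a pseudocount of 0.01, with no filter, with the replicate block and with the length correction and block, and 0 with the fold threshold and with the Xist term. The 11 lower on D10 than D3 became 6 with no filter, 6 with only those groups, 1 with the fold threshold and 3 with the Xist term.

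In the cells, the 1 gene lower in DM3 in Ctrl became 0 with no filter, quantile normalization, only those groups or the fold threshold, and 2 with the replicate block. The 1 lower in Cas9M3 became 8 with a pseudocount of 1, 3 with no filter, 5 with quantile normalization, 0 with only those groups, and 2 with the replicate block, the length correction or both. The 2 lower in Cas9M3 than Ctrl in DM3 became 19 with only those groups, which share no spread with GM, and 0 with the fold threshold.

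Leaving out single libraries gave 0 to 8 higher on D1, 6 to 15 higher and 0 to 1 lower between D3 and D0, 0 to 2 higher and 0 to 1 lower between D3 and D1, 0 to 3 lower between D5 and D3, 2 to 11 lower between D10 and D3, 0 to 1 higher and 0 to 19 lower in Ctrl, 0 to 27 lower in Cas9M3, and 0 to 8 lower between the lines in DM3. Where an arm kept 1 library, that library was assumed to vary like the others. These counts stand without the share of all genes called in the same fits, so they bear on the calls alone. The causes were not tested. Of the calls and values of single genes, 1276 kept their side of the threshold, 73 crossed to the called side and 226 left it.

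In muscle the replicate numbers did not pair the libraries, and the block left 14 higher between D3 and D0 and 10 lower between D10 and D3. Quantile normalization shifted the median of all genes by −0.12 between D3 and D0. Genes at a few reads, such as Ccne1 and Cdc6 on D0, are limited by depth, and 13 of the 39 genes were under 0.5 FPKM in both D0 libraries.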
